A study of Mus musculus with 18 samples.

Results

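The 10 genes described here, of 55487 in the counts table, encode the main carriers by which sugars, peptides and amino acids cross the small intestinal epithelium. They were chosen by symbol as transporters of the apical or the basolateral membrane of enterocytes, and all 10 were found in the table and passed the filter on low counts that left 15247 genes for testing. The samples were organoids, closed epithelial cultures grown from small intestinal crypts of female wild-type C57BL/6 mice. The methods describe the study's mice as young adults and name no intestinal segment for the organoids. After 4 passages they were kept for 4 days with norepinephrine at 1 µM (n = 5), the general agonist of α- and β-adrenergic receptors, with its vehicle HCl (n = 4), with UK14304 at 1 µM (n = 5), an agonist of α2-adrenergic receptors, or with its vehicle DMSO (n = 4). The sample titles end in m1 to m5, and this replicate number was read as the mouse of origin. On that reading, mice 1 to 4 gave a sample to each of the 4 groups and mouse 5 gave only the agonist samples. A donor mouse, an organoid line and a culture batch cannot be told apart by these titles.

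Enterocytes take up glucose and galactose with sodium through SGLT1 and fructose through GLUT5 at the apical brush border, and release sugars to the blood side through GLUT2. Peptides enter through the proton-coupled PEPT1. Amino acids enter through carriers that differ in substrate, several of which need a heavy chain as partner, and leave through exchangers on the basolateral side that pair with the heavy chain 4F2hc.

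The 18 libraries held 21866149 to 27850373 counts, and each transporter had between 473 and 43718 counts in a library, so none of them was limited by a count near 0. In 7 libraries (HCl mouse 4, DMSO mice 1, 2 and 3, norepinephrine mice 4 and 5, UK14304 mouse 1) a ribosomal RNA gene took more than 1% of the counts, and this split was uneven between UK14304 and DMSO. The cultures expressed the epithelial genes Epcam, Cdh1, Vil1 and Krt8 at a summed 4948 to 5454 CPM (counts per 1000000 scaled library counts) in every library, whereas the 6 fibroblast and immune markers summed to 0.411 to 1.56 CPM. In bulk RNA, fewer cells of a type and less RNA per cell cannot be told apart.

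Promoter windows are shown for 3 of the transporters. RefSeq windows (GRCm38.p6, 250 bases before to 50 after a transcript start, on the strand of the gene) were matched for all 10 members, in 15 windows. In 32851 windows of 300 bases, 4 motifs were searched on both strands: GTTAAT, the half-site of HNF1; CAAAGTCCA, a core of HNF4 sites; TTTATG, a CDX motif; and TGATGNAA, the C/EBP-ATF response element of amino acid starvation. No overlap between motifs occurred in the printed windows. The capitals mark the matches, and Slc5a1, which has none, is given as the most abundant member.
Slc5a1, chr5:33103969-33104268, plus strand: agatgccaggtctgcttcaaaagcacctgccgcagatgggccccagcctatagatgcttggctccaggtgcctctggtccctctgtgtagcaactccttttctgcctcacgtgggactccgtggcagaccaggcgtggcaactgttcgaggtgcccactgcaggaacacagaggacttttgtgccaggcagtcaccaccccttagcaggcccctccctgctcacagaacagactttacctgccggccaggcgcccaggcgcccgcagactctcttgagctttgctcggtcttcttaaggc
Slc3a1, chr17:85028097-85028396, plus strand: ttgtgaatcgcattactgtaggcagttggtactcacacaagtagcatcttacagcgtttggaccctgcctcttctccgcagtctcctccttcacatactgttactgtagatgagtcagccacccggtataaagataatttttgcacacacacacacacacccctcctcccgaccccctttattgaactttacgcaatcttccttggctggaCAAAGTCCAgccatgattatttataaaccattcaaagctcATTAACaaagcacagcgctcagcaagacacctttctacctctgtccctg
Slc7a7, chr14:54409423-54409722, minus strand: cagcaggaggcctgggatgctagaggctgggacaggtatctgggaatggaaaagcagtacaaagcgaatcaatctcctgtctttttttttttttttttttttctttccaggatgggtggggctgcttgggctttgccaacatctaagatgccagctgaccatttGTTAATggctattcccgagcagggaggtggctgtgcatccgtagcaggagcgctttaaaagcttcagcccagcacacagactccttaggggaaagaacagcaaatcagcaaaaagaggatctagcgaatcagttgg
Slc7a7, chr14:54417895-54418194, minus strand: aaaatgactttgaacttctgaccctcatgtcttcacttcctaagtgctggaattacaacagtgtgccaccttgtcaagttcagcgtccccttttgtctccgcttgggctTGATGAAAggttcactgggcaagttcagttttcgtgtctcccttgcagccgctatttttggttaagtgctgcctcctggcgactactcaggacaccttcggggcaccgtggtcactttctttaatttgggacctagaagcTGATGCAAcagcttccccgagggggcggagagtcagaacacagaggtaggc
The HNF1 half-site stood in windows of 2 members, Slc3a1 and Slc7a7, and in 7.1% of all windows. The HNF4 core stood in that of Slc3a1 alone among the members and in 0.475% of all windows. The response element was found in windows of Slc7a7 and in 3.97% of all, and the CDX motif was in no member window and in 11.8% of all. Members other than Slc3a1 and Slc7a7 had no match. Members were counted over all their windows, and Slc7a7 has several, whereas the shares are per window, so the 2 are not like measures. A match is a description of these letters, not a binding site.

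Per kilobase of exon the members spanned a wide range, led by Slc5a1, the gene of SGLT1. Slc5a1 stood at 371.1 ± 33.3 RPKM (CPM per kilobase of exon; SD, n = 18 libraries), a level at or above that of 99.5% of the tested genes. Slc3a1, which encodes rBAT, the heavy chain of the apical cystine and dibasic amino acid carrier, followed at 63.8 ± 5.62 RPKM. Slc3a2 (4F2hc) at 39.2 ± 2.24, Slc7a7 (y+LAT1, its light chain for dibasic amino acid exit) at 36.3 ± 3.06 and Slc2a5 (GLUT5) at 35.3 ± 3.97 RPKM had overlapping ranges.

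A second close group was formed by Slc6a19 (B0AT1, the apical carrier of neutral amino acids) at 26.4 ± 2.93 RPKM, Slc7a9 (b0,+AT, the light chain that pairs with rBAT) at 26.3 ± 2.04 and Slc2a2 (GLUT2) at 26.1 ± 3.45, whose order within the group is smaller than their spread. Slc15a1 (PEPT1) at 10.8 ± 0.974 RPKM and Slc1a1 (EAAC1, the carrier of acidic amino acids) at 3.10 ± 0.404 were lowest, and no library of either reached the lowest library of Slc2a2. The order was the same for the share of counts per length (TPM). Reads in exon bases shared with another gene were not counted, which concerns 26.46% of the exon bases of Slc3a1 (shared with Prepl), 31.86% of those of Slc1a1 (with 4430402I18Rik) and 7.0% of those of Slc7a7 (with Oxa1l). With the unshared length, Slc3a1 stood at 86.7 RPKM and Slc1a1 at 4.54 RPKM, and the order did not change.

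**Figure D1:**
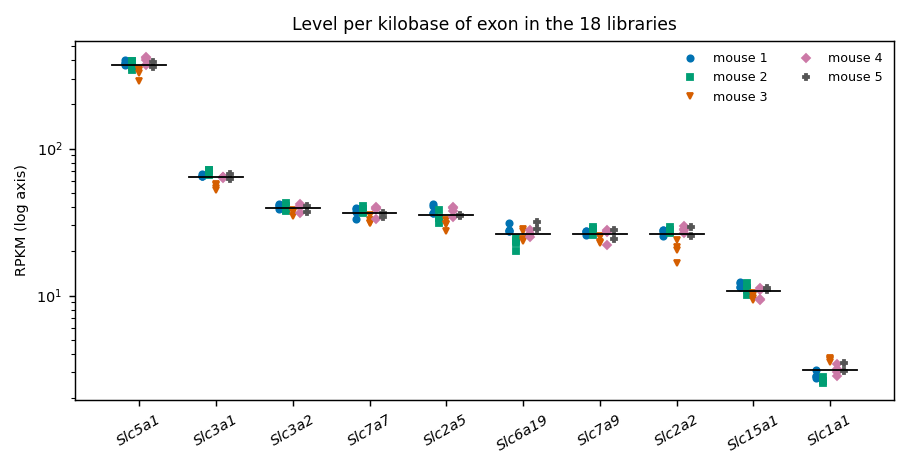
Level of each transporter per kilobase of exon (RPKM, log axis) in the 18 libraries. Points are libraries, coloured by mouse, and lines are the means over all libraries: Slc5a1 at 371.1 RPKM lies above every other member, and Slc1a1 at 3.10 RPKM below.

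None of the 10 transporters passed the test with either agonist. With norepinephrine, 0 of 10 members had an adjusted p under 0.05 (edgeR quasi-likelihood test with mouse as a block, Benjamini-Hochberg adjustment over all tested genes), where 0.105% of all tested genes did. At an unadjusted p under 0.05 there were 2 members, Slc6a19 and Slc7a7, against 8.4% of all genes. With UK14304, 0 of 10 members passed, where 1.22% of all tested genes did. The members with an unadjusted p under 0.05 were 4, Slc5a1, Slc2a5, Slc6a19 and Slc7a7, against 14.8% of all genes.

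The log2 fold changes of the 10 members lay between -0.14 and 0.11 for norepinephrine, with a median of -0.03 where that of all tested genes was -0.01. For UK14304 they lay between -0.17 and 0.17, with a median of -0.09 where that of all tested genes was -0.0043. By sign, 6 of 10 members were lower with norepinephrine and 7 of 10 with UK14304. DESeq2 with the same block called 0 of the 10 in both comparisons.

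**Figure D2:**
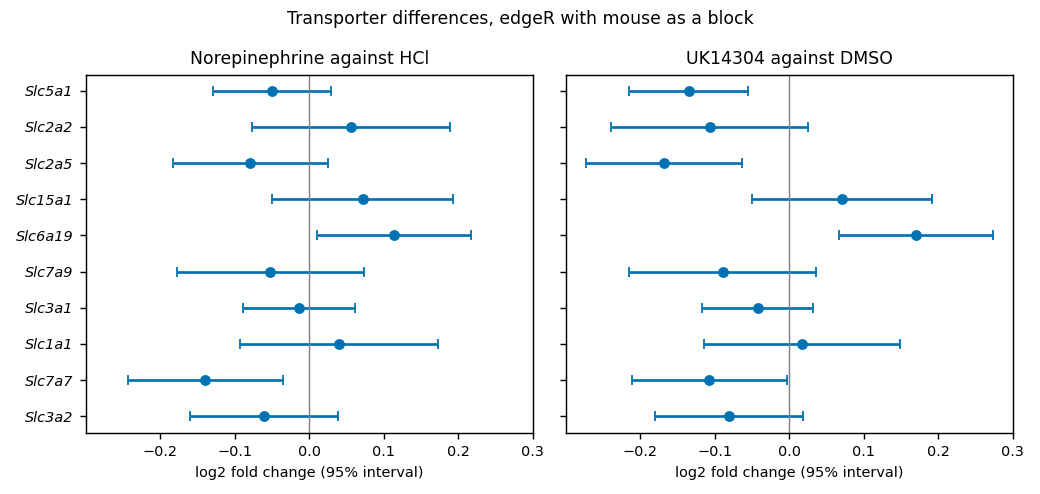
Log2 fold change of each transporter for norepinephrine against HCl (left) and UK14304 against DMSO (right). Points are the edgeR estimates with mouse as a block and bars the 95% intervals, unadjusted for the number of genes; all points lie between -0.17 and 0.17.

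Among the sugar transporters, both apical carriers had lower estimates with UK14304. Slc5a1 stood at 1576, 1611, 1345 and 1638 CPM with DMSO in mice 1 to 4, and at 1516, 1398, 1181, 1526 and 1481 CPM with UK14304 in mice 1 to 5. The groups overlapped, while in each of the 4 mice with both samples the UK14304 library was the lower one. The log2 fold change was -0.14 (95% interval -0.21 to -0.06, adjusted p = 0.101). With norepinephrine Slc5a1 stood at 1565, 1470, 1407, 1724 and 1605 CPM, against 1637, 1619, 1421 and 1694 CPM with HCl, and was lower in 3 of 4 mice. That log2 fold change was -0.05 (95% interval -0.13 to 0.03, adjusted p = 0.659).

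Slc2a5, the fructose carrier, stood at 138.5, 130.4, 103.7 and 128.2 CPM with DMSO and at 124.9, 106.0, 93.5, 117.4 and 119.3 CPM with UK14304. The ranges overlapped because mouse 3 was low in both groups, and 4 of 4 mice were lower with UK14304. Its log2 fold change was -0.17 (95% interval -0.27 to -0.06, adjusted p = 0.124), and for norepinephrine it was -0.08 (95% interval -0.18 to 0.03, adjusted p = 0.617). With norepinephrine the 5 libraries lay between 104.6 and 137.1 CPM and with HCl the 4 libraries between 111.1 and 142.7 CPM.

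Slc2a2, the basolateral exit route for sugars, was the member that varied most among libraries, 1.77-fold from the lowest to the highest. With DMSO it stood at 154.7, 160.6, 122.6 and 162.9 CPM and with UK14304 at 146.0, 152.8, 96.4, 170.5 and 147.3 CPM. Mouse 3 was the lowest library of either group, and the groups overlapped. The log2 fold change was -0.11 (95% interval -0.24 to 0.03, adjusted p = 0.435) with UK14304 and 0.06 (95% interval -0.08 to 0.19, adjusted p = 0.755) with norepinephrine, whose libraries stood at 159.9, 168.2, 136.5, 152.5 and 169.5 CPM against 160.2, 161.5, 118.3 and 160.0 CPM with HCl. When only the 11 libraries with under 1% ribosomal RNA were kept, which left a single DMSO library, the UK14304 estimate of Slc2a2 was 0.07.

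Slc15a1, the peptide carrier, had positive estimates with both agonists that did not pass the test. It lay between 45.4 and 59.9 CPM with HCl and between 51.2 and 60.3 CPM with norepinephrine, and between 45.6 and 59.0 CPM with DMSO and 47.0 and 56.2 CPM with UK14304. All ranges overlapped. The log2 fold changes were 0.07 (95% interval -0.05 to 0.19, adjusted p = 0.676) and 0.07 (95% interval -0.05 to 0.19, adjusted p = 0.569).

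Of the apical amino acid carriers, Slc6a19 had the highest estimate of the members with each agonist. It stood at 138.3, 113.9, 117.4 and 126.3 CPM with DMSO and at 156.2, 122.9, 142.6, 132.2 and 158.3 CPM with UK14304. The groups overlapped, since mouse 2 with UK14304 and mouse 4 with UK14304 were below mouse 1 with DMSO, and 4 of 4 mice were higher with UK14304. The log2 fold change was 0.17 (95% interval 0.07 to 0.27, adjusted p = 0.115).

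With norepinephrine Slc6a19 stood at 137.8, 118.5, 137.6, 139.7 and 141.1 CPM, and with HCl at 139.2, 100.4, 120.6 and 131.2 CPM. It was higher in 3 of 4 mice and nearly level in mouse 1. The log2 fold change was 0.11 (95% interval 0.01 to 0.22, adjusted p = 0.576).

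Neither partner of the cystine carrier passed the test. Slc3a1 (rBAT) stood at 148.5, 163.5, 122.0 and 144.7 CPM with DMSO and at 147.8, 149.9, 119.4, 146.6 and 141.7 CPM with UK14304, a log2 fold change of -0.04 (95% interval -0.12 to 0.03, adjusted p = 0.584). As a percent of the DMSO level, the interval of that change ran from -7.8% to 2.25%. Slc7a9 (b0,+AT) lay between 61.9 and 78.2 CPM with DMSO and between 59.5 and 74.5 CPM with UK14304, a log2 fold change of -0.09 (95% interval -0.22 to 0.04, adjusted p = 0.488). With norepinephrine both were close to HCl, at -0.01 for Slc3a1 (95% interval -0.09 to 0.06) and -0.05 for Slc7a9 (95% interval -0.18 to 0.07).

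Slc1a1, the carrier of glutamate and aspartate, stood at 22.5, 21.7, 29.96 and 24.9 CPM with DMSO and at 23.3, 20.9, 28.9, 28.3 and 25.3 CPM with UK14304. Mouse 3 was the highest library of both groups and mouse 2 the lowest. The log2 fold changes were 0.02 (95% interval -0.11 to 0.15, adjusted p = 0.917) with UK14304 and 0.04 (95% interval -0.09 to 0.17, adjusted p = 0.826) with norepinephrine.

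On the basolateral side, Slc7a7 had the lowest estimate of the members with norepinephrine. It stood at 131.7, 128.7, 116.5 and 130.6 CPM with HCl and at 110.4, 120.4, 102.8, 131.8 and 113.0 CPM with norepinephrine. Mice 1, 2 and 3 were lower with norepinephrine while mouse 4 was level, and the groups overlapped. The log2 fold change was -0.14 (95% interval -0.24 to -0.04, adjusted p = 0.557). Without mouse 4 it was -0.18 with an adjusted p of 0.00171 and Slc6a19 was at 0.13 with an adjusted p of 0.0377, so that 2 of 10 members passed in that fit, in which 15.1% of all genes were called.

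With UK14304 Slc7a7 stood at 122.8, 122.7, 103.7, 110.5 and 121.6 CPM, against 128.9, 134.1, 108.8 and 128.1 CPM with DMSO, and was lower in 4 of 4 mice. The log2 fold change was -0.11 (95% interval -0.21 to -0.0034, adjusted p = 0.325). Its heavy chain Slc3a2, which also serves other carriers, lay between 134.1 and 149.8 CPM with DMSO and between 123.1 and 148.0 CPM with UK14304, a log2 fold change of -0.08 (95% interval -0.18 to 0.02, adjusted p = 0.435). With norepinephrine Slc3a2 was at -0.06 (95% interval -0.16 to 0.04, adjusted p = 0.664).

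**Figure D3:**
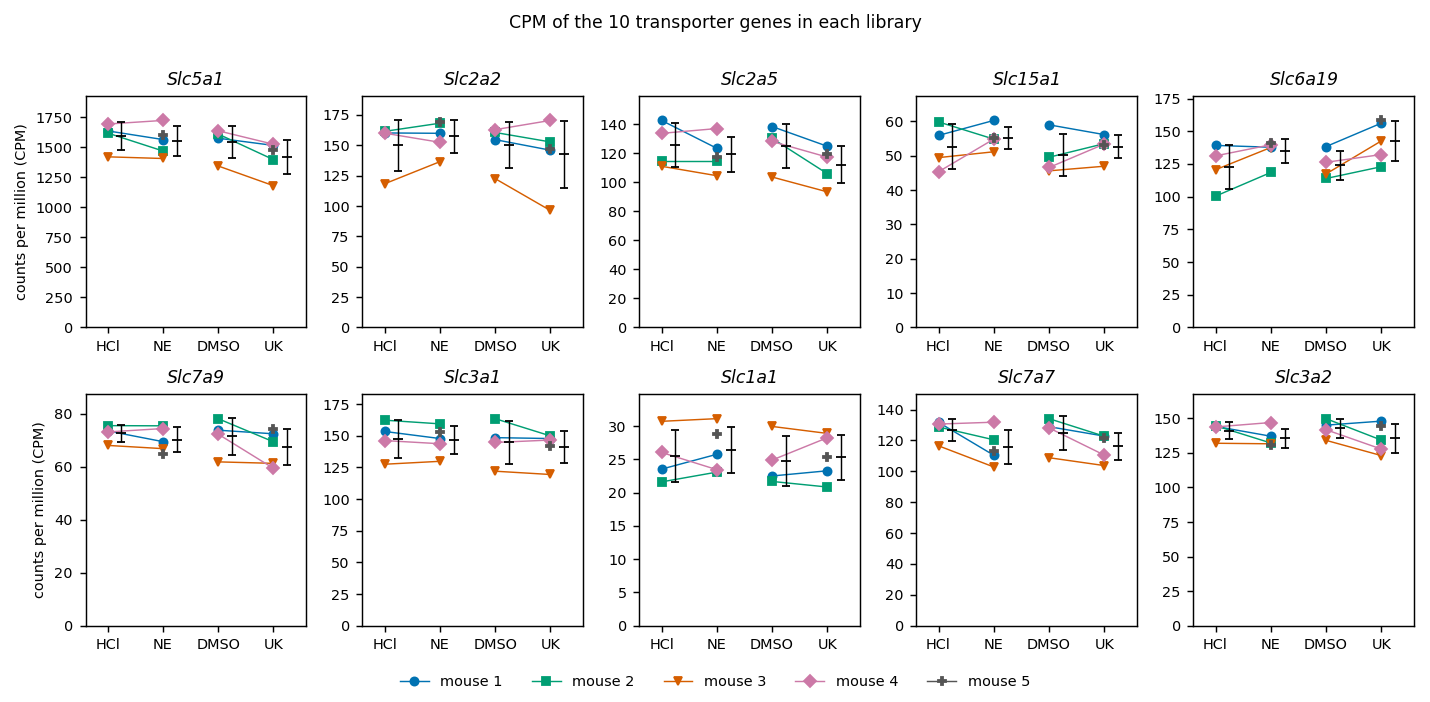
CPM of each transporter in every library, by group (HCl, norepinephrine NE, DMSO and UK14304 UK); colours are mice, lines join the samples of a mouse, and black bars are mean ± SD. The lines of mouse 3 run lowest for Slc5a1, Slc2a2, Slc2a5, Slc3a1 and Slc7a7 and highest for Slc1a1, and vehicle and agonist ranges overlap in every panel.

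The count of 0 with UK14304 depended on the settings. Without mouse 4, Slc5a1 was at -0.15 (adjusted p = 0.0157), Slc2a5 at -0.19 (adjusted p = 0.0148) and Slc6a19 at 0.20 (adjusted p = 0.00532), where 3.83% of all genes passed. With a trend on GC content removed from each library, Slc5a1 (-0.15, adjusted p = 0.0116), Slc2a5 (-0.12, adjusted p = 0.0456), Slc6a19 (0.17, adjusted p = 0.0184) and Slc2a2 (-0.18, adjusted p = 0.0385) passed, in a fit that called 4.11% of all genes. With a term for the ribosomal RNA split 0 members and 0.512% of all genes did (Slc5a1 -0.12, adjusted p = 0.403; Slc2a5 -0.14, adjusted p = 0.497; Slc6a19 0.19, adjusted p = 0.236). Among only the libraries under 1% ribosomal RNA, Slc7a9 (-0.27, adjusted p = 0.00279) and Slc7a7 (-0.20, adjusted p = 0.0125) passed, with 1 DMSO library that is assumed to vary like the others, in a fit that called 19% of all genes.

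The agonists act on overlapping receptors, so their effects were compared directly. The effect of UK14304 against DMSO minus that of norepinephrine against HCl passed in 0 of 10 members and in 0 of the 15247 tested genes, with 405 genes (2.66%) at an unadjusted p under 0.05, and DESeq2 with the same block called 1 gene. The member with the largest difference was Slc2a2 at -0.16 (SE 0.087, 95% interval -0.35 to 0.02) and the most positive was Slc6a19 at 0.06 (SE 0.068, 95% interval -0.09 to 0.20). All 10 intervals include 0, and the narrowest was that of Slc3a1, from -0.13 to 0.07. In 7 of 10 members the sign of the difference reversed under 1 or more alternatives, most often for Slc15a1 (13 of 34). Of the vehicles, HCl against DMSO gave 0 of 10 members and 0 of 15247 genes past the threshold, 277 (1.82%) at an unadjusted p under 0.05 and 0 by DESeq2, and the members' log2 differences lay between -0.02 and 0.07.

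For most of these genes, most of the variation lay between mice. With the treatment groups in the fit, 8 of 10 members differed between the 5 mice (edgeR F test over the mouse terms, adjusted p under 0.05), where 13.8% of all tested genes and 17% of the genes with at least the mean CPM of Slc1a1 did. This was not particular to the transporters. Past the threshold were 10 of 12 brush border hydrolases, 10 of 11 amino acid response genes, 4 of 4 enterocyte markers and 5 of 5 Paneth cell markers. Lower shares were those of other peptide and amino acid transporters (13 of 24), other sugar transporters (6 of 13) and enterocyte transcription factors (4 of 13). The same held for goblet cell markers (2 of 4), the epithelial genes (0 of 4) and the tested tuft cell markers (0 of 2). Slc3a1 (adjusted p = 2.08e-05), Slc5a1 (0.000183), Slc2a2 (0.000217), Slc2a5 (0.000296), Slc1a1 (0.000363), Slc6a19 (0.000985), Slc7a7 (0.0188) and Slc15a1 (0.0249) passed, and Slc7a9 (0.163) and Slc3a2 (0.295) did not. With mouse entered before group, mouse accounted for 38.4 to 90.6% of the variance of a member's log2 CPM, and for a median of 30.2% over all tested genes. The highest share was that of Slc3a1, and the lowest were those of Slc3a2 (38.4%) and Slc7a9 (43.9%).

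Mouse 3 was lower than the mean of mice 1 to 4 in all 4 of its libraries for 8 members. Its mean log2 deviation was -0.33 for Slc2a2, -0.21 for Slc2a5, -0.21 for Slc3a1, -0.18 for Slc5a1, -0.16 for Slc7a7, -0.12 for Slc7a9, -0.12 for Slc15a1 and -0.09 for Slc3a2. Slc1a1 went the other way, at 0.26 and above the mean in all 4 libraries, and Slc6a19 was level at 0.0012. Mouse 2 was lowest for Slc6a19 (-0.18) and for Slc1a1 (-0.21), in all 4 libraries each. Over all tested genes, the 10th and the 90th percentile of the deviations of mouse 3 were -0.20 and 0.16.

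**Figure D4:**
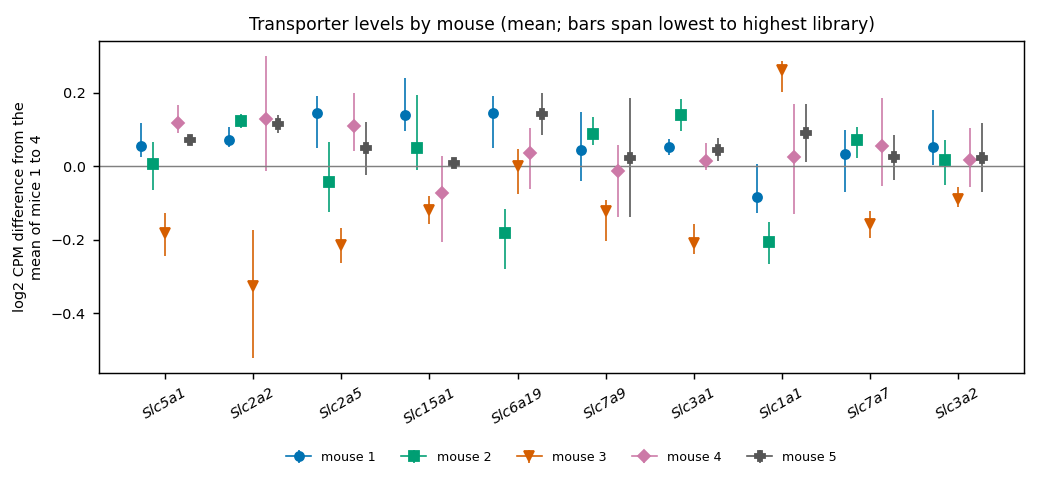
Log2 CPM of each transporter in each mouse relative to the mean of mice 1 to 4 in the same groups. Points are means over the libraries of the mouse (4 each, 2 for mouse 5) and bars run from the lowest to the highest library; mouse 3 lies at -0.33 for Slc2a2 and at 0.26 for Slc1a1.

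The difference between mice rested on mouse 3 for most members. Without it, 1 of 10 members passed, Slc6a19 (adjusted p = 0.00542), where 3.56% of all tested genes did. Without mouse 2, 6 of 10 passed (5.29% of all genes). Within the norepinephrine and HCl libraries alone 5 of 10 members passed (4.82% of all genes), and within the UK14304 and DMSO libraries alone 7 of 10 passed (10.8% of all genes).

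Genes that mark the proximal small intestine were low in mouse 3, as most members were, and high in mouse 2, where the members were not uniformly so. The members had a median log2 deviation of -0.14 in mouse 3, with 8 below the mean and 2 above. In mouse 2 their median was 0.03, with 3 below and 7 above. Gata4, Onecut2, Cybrd1 and Slc40a1 were all below the mean in mouse 3, with deviations of -0.25, -0.78, -1.36 and -2.08, and all above it in mouse 2, at 0.14, 0.66, 1.18 and 1.72. The 4 distal genes were above the mean in mouse 3, led by the bile acid genes Fabp6 (1.33) and Slc10a2 (0.82), though these 2 were above it in mouse 2 as well. The 4 distal genes together summed to only 51.5 to 80.8 CPM in a library. Fabp6 was also unsteady within a mouse, at log2 differences of 2.11 (mouse 1) and -1.74 (mouse 3) between norepinephrine and HCl. The enterocyte markers Alpi (-1.17), Apoa4 (-0.54), Fabp1 (-0.23) and Apoa1 (-0.19) were also low in mouse 3, whereas 8 of 12 brush border hydrolases were above the mean there. Summed over the 4 proximal genes, libraries ranged from 372.6 to 1502 CPM. The part of segment or enterocyte content in the transporter differences was not tested.

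The members with the most alike patterns over the 18 libraries were Slc7a9 and Slc3a2, whose centred log2 CPM differed by a root mean square of 0.064. Slc7a7 followed with each of these (0.068 from both), then Slc5a1 with Slc2a5 (0.075). Among the genes outside the list with the pattern closest to the mean of the 9 members other than Slc3a2 were Acsl5, Sephs2, Galm and Rnf185, at root mean square differences of 0.036 to 0.042, where the median over 11519 genes was 0.134. The genes closest to Slc5a1 alone were P4hb, Slco2b1, Sec24d, Slc25a44 and Sec22c, at 0.058 to 0.066 with a median of 0.17. A gene without any variation would stand at 0.078 from the mean of the 9 members and at 0.13 from Slc5a1. Both values are below those medians, so the measure favours genes that vary little.

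Other transporters of the same substrates were examined from lists of 19 sugar carriers and 33 peptide and amino acid carriers. Among the 13 tested sugar transporters outside the members, none passed with norepinephrine and 1 with UK14304 (1.22% of all tested genes did), where 11 of 13 estimates were negative. That gene was Slc2a1 (GLUT1, basal glucose uptake), at a log2 fold change of -0.37 (SE 0.068, adjusted p = 0.00727, and 0.423 without the mouse block). Among the 24 tested peptide and amino acid transporters, none passed with norepinephrine and 3 with UK14304, against the same 1.22% of all genes. The neutral amino acid transporters Slc1a4 (ASCT1) at -0.28 (adjusted p = 0.00986, 0.346 without the block) and Slc38a1 (SNAT1) at -0.21 (adjusted p = 0.0495, 0.622 without the block) were lower, and Slc7a8 (LAT2, a basolateral partner of 4F2hc) at 0.20 (adjusted p = 0.0238, 0.414 without the block) was higher. The call of Slc38a1 was lost in 26 of 35 alternatives, with estimates from -0.28 to -0.07, that of Slc7a8 in 11 and that of Slc1a4 in 9. Of the most abundant others, Slc6a6, the taurine carrier, was at 0.08 and Slc1a5 (ASCT2) at -0.16, neither past the threshold.

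A separate list of partners of the members, which does not include Slc7a8, had no gene past the threshold in either comparison. Of 10 tested partners, scaffolds and pumps, 0 were past the threshold with either agonist. Of all tested genes, 0.105% were with norepinephrine and 1.22% with UK14304. At an unadjusted p under 0.05 in the edgeR test there were 4 of the 10 with UK14304, against 14.8% of all genes. With norepinephrine there was 1, against 8.4%. Atp1b1, a beta subunit of the sodium pump, which sets the gradient that SGLT1 and B0AT1 use, was at -0.00031 with UK14304. The 12 brush border hydrolases, which release the substrates of the members, had 0 genes past the threshold with either agonist. They had 5 genes at an unadjusted p under 0.05 with UK14304 and 1 with norepinephrine, against the same shares of all genes. Their medians were 0.03 with norepinephrine and 0.08 with UK14304, with Sis (sucrase-isomaltase) at 0.16 (adjusted p = 0.421) and Mgam (maltase-glucoamylase) at 0.09 (adjusted p = 0.398). None of 13 enterocyte transcription factors passed with either agonist, while 2 with UK14304 and 1 with norepinephrine had an unadjusted p under 0.05. Hnf4a was at -0.03, Hnf4g at 0.02 and Cdx1 at -0.01 with UK14304.

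Genes of the amino acid response were lower with UK14304 in part of the list. This pathway, run by ATF4, induces amino acid synthesis and transport genes when amino acids are scarce or the endoplasmic reticulum is under stress. All 11 listed genes had negative estimates with UK14304, with a median of -0.28, and 6 of 11 passed where 1.22% of all tested genes did: Atf4 (-0.28, adjusted p = 0.00451), Asns (-0.22, adjusted p = 0.00537), Psat1 (-0.21, adjusted p = 0.00657), Ddit3 (-0.48, adjusted p = 0.00658), Trib3 (-0.50, adjusted p = 0.0102) and Atf3 (-0.72, adjusted p = 0.000564). Without the mouse block their adjusted p lay between 0.146 and 0.444. This list was chosen with earlier results of these data known. Its share of calls beside that of all genes is therefore a description and not a test of the list. With norepinephrine all 11 estimates were negative as well, with a median of -0.15, and 0 passed. Slc3a2, a member that this pathway is known to induce, was at -0.08 with UK14304, as given above.

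**Figure D5:**
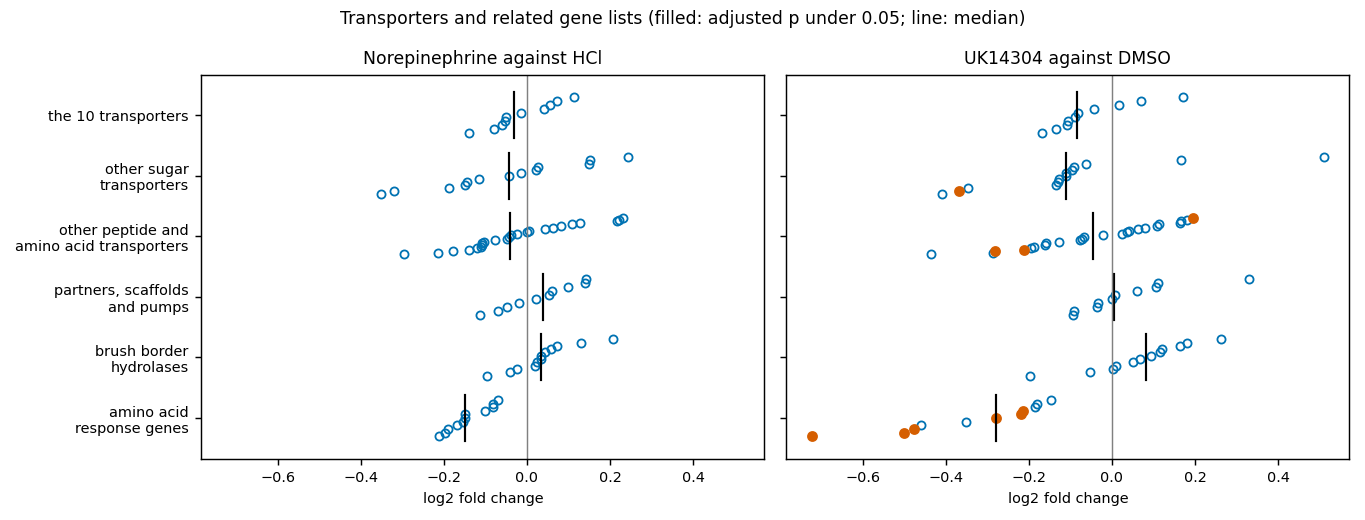
Log2 fold changes of the 10 transporters and of 5 related gene lists for norepinephrine against HCl (left) and UK14304 against DMSO (right). Each point is a gene, filled where its adjusted p is under 0.05, and lines are list medians: the transporters have 0 filled points in either panel, and the amino acid response genes have 6 with UK14304 and a median of -0.28.

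Markers of other cell types were measured beside these values. The Paneth cell markers Lyz1 and Defa22 fell with norepinephrine (log2 fold change -0.37 and -0.69, adjusted p = 0.0019 and 0.0062) and with UK14304 (-0.31 and -0.70, adjusted p = 0.0031 and 0.00208), and Ang4 fell with UK14304 (-0.27, adjusted p = 0.022), as did the goblet cell marker Agr2 (-0.16, adjusted p = 0.0323) and the proximal marker Slc40a1, the iron exporter (-0.46, adjusted p = 0.000564). None of these calls held without the mouse block, where the adjusted p was 0.713 and 0.723 for Lyz1 and Defa22 with norepinephrine and lay between 0.26 (Agr2) and 0.834 (Slc40a1) with UK14304. The call of Agr2 was lost in 18 of 35 alternatives and that of Ang4 in 12, whereas Lyz1, Defa22 and Slc40a1 each lost theirs in 2 to 5. By sign, 5 of 5 Paneth markers, 3 of 4 goblet markers and 3 of 4 proximal genes were lower with each agonist. The highest estimate with UK14304 was 0.11 among the goblet markers and 0.18 among the proximal genes. The summed Paneth markers ranged from 2227 to 3574 CPM with the vehicles and from 1906 to 2890 CPM with the agonists. The 4 enterocyte markers, 6 stem cell markers, 5 enteroendocrine markers and the 2 tested tuft cell markers had 0 calls with either agonist, and the summed enterocyte markers were 6748 to 10670 CPM with DMSO and 6005 to 9024 CPM with UK14304. The part of cell composition in the transporter values was not tested.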

How the data were processed

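Libraries were made from total RNA with a poly(A)-selecting mRNA kit and sequenced in reads of 50 bases. Per the labels and the file header, the authors aligned reads to GRCm38 with STAR 2.7.3 and deposited raw counts per gene, from featureCounts 2.0.1 on exons of Ensembl release 102 without use of strand (the processing notes name Subread 1.6.4), so reads in exons shared by 2 genes were not counted. The deposited counts were tested as they stand with edgeR 4.0.16 (R 4.3.3): TMM scaling, filterByExpr by group, robust quasi-likelihood fit of all 18 samples with group and mouse as terms, and Benjamini-Hochberg adjustment over 15247 genes, which was tested on simulated data. CPM and RPKM use TMM-scaled library sizes and merged exon lengths of the table. The 95% intervals use the degrees of freedom of the fit and are not adjusted. Counting error at these depths is small beside the whole spread between samples. It was not compared with the smaller spread left after the mouse block.

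Same-numbered samples were taken to come from the same mouse. Their deviations from the group means correlated at 0.119 to 0.431 (mean 0.283) for norepinephrine and HCl. For UK14304 and DMSO they did so at 0.155 to 0.52 (mean 0.351), and mouse was kept as a block. The means for other mice were -0.0704 and -0.0864. As each group was centred on its mean, these largely follow from the same-mouse values and add no evidence. The members and the other lists were chosen with earlier results of these data known. All 10 members are named. Of other lists, the genes past the threshold are named, or else up to 4 with the highest mean level; the most alike genes are the 5 with the smallest root mean square difference among genes with a mean of at least 1 log2 CPM (prior count 2). Some genes that these rules name are not reported here. Ddit3 had 2 identifiers, of which the one with more counts was used. Alternatives were no block, DESeq2 1.42.0 with and without block, its size factors, other filters, trends on GC content or length, a term for libraries with over 1% ribosomal RNA, pairs of groups alone, an adjusted p under 0.01, and fits without each sample or mouse. Fits that combined the ribosomal RNA term with the GC trend or kept only libraries under 1%, mouse tests within a pair of groups, and lengths without shared bases were added after the data were seen.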

Additional observations from a re-analysis of the deposited data

Results flagged for a closer look

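In 4 of 40 sets of libraries examined (each member in each group), 1 library stood apart from the others by Dixon's criterion at the 95% level, which chance alone meets in about 1 of 20 sets. Mouse 3 with HCl was low for Slc2a2, at 118.3 CPM where the other 3 mice stood at 160.0 to 161.5 CPM, and for Slc3a2, at 132.0 CPM where they stood at 143.8 to 144.7 CPM. Mouse 3 with UK14304 was low for Slc3a1, at 119.4 CPM against 141.7 to 149.9 CPM. Mouse 2 with norepinephrine was low for Slc6a19, at 118.5 CPM against 137.6 to 141.1 CPM. The same mouse was the lowest for the same gene in the other groups as well, for Slc2a2, Slc3a1 and Slc6a19.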

How the results depend on the processing

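Without the replicate block, 0 of 10 members were called with norepinephrine (0 of all genes, against 16 with it) and 0 with UK14304 (6 of all genes, against 186), so the block changed no member's call. With norepinephrine the count of 0 members became 2 among libraries under 1% ribosomal RNA, and 0 to 2 without single libraries or mice (1 without the norepinephrine library of mouse 4, 2 without mouse 4). With UK14304 it became 3 without a filter on low counts, 4 with the GC trend removed, 2 with only UK14304 and DMSO, 1 with the ribosomal RNA term and GC trend together, 2 among libraries under 1% ribosomal RNA, and 0 to 3 without single libraries or mice (3 without mouse 4 and without the norepinephrine library of mouse 4, 1 without the UK14304 library of mouse 4). The cause was not tested. All other alternatives left these counts at 0, as all did for the difference between the agonists and for the vehicles. The 8 members that differed between mice became 5 with only norepinephrine and HCl, 9 with the GC trend removed and 10 among libraries under 1% ribosomal RNA, and 1 to 10 without single libraries or mice (1 without mouse 3, 10 without mouse 4). Over all genes, the calls ranged over all alternatives from 0 to 2692 for norepinephrine (16 as reported; 2300 without mouse 4), from 6 to 3046 for UK14304 (186 as reported; 585 without mouse 4, 23 without mouse 3), from 0 to 136 for the difference between agonists, from 0 to 533 for the vehicles and from 545 to 5428 for mice (2110 as reported), each highest value among libraries under 1% ribosomal RNA, a fit of 11 libraries. With norepinephrine, 2529 genes were called without its library of mouse 4. With UK14304 there were 627 without a filter on low counts, 626 with the GC trend removed and 525 with only UK14304 and DMSO. The ribosomal RNA term with the GC trend gave 221. Without mouse 4's norepinephrine library there were 1225, and without its UK14304 library 194. Calls between mice were 702 with only norepinephrine and HCl, 3701 with the GC trend removed and 4459 without mouse 4. The median level of 30.8 RPKM is 110.4 in TPM, a change of unit.

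Signs of estimates near 0 changed. Slc2a2 with norepinephrine was at -0.0181 with the GC trend removed and at -0.0199 with the ribosomal RNA term added to it. Slc3a1 with norepinephrine was at 0.0141 with the length trend removed and between -0.025 and 0.0117 without single libraries or mice. With UK14304, Slc1a1 was at -0.011 with the length trend removed, -0.000564 with the ribosomal RNA term, -0.0057 with that and the GC trend, and between -0.0489 and 0.0449 without single libraries or mice. Among libraries under 1% ribosomal RNA, Slc2a2 was at 0.0746 and Slc3a1 at 0.0272 with UK14304, and the difference between agonists for Slc6a19 was at -0.0605. The sign of that difference also reversed for Slc15a1 in 13 of 34 alternatives, Slc1a1 in 6, Slc3a2 in 5, Slc7a9 and Slc7a7 in 3 each and Slc3a1 in 1, and that of the vehicle difference in 1 to 8 of 34 for 7 members. Calls on genes of the other lists kept their sign in all 35 alternatives and were lost in 1 (Atf3) to 26 (Slc38a1).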
